A study of Mus musculus with 6 samples.

Results

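Acetylcholine reaches the amygdala mainly from basal forebrain neurons and acts there on muscarinic receptors, which signal through G proteins, and on nicotinic receptors, which are cation channels. The muscarinic receptors encoded by Chrm1, Chrm3 and Chrm5 couple to Gq, which activates phospholipase C and so forms inositol 1,4,5-trisphosphate (IP3), the substrate of the kinase IP3K-A. Those encoded by Chrm2 and Chrm4 couple to Gi and lower cyclic AMP. Chrna4, Chrna7 and Chrnb2 encode the main nicotinic subunits of the brain, and Ache encodes acetylcholinesterase, the enzyme that ends the signal by splitting acetylcholine. These 9 genes were chosen by name, and each was read from the probe set that the platform annotation pairs with its symbol alone. All 9 of the 22180 genes measured had such a probe set, and Chrm1, with 2, was read from the brighter.

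RNA of the amygdala from 3 wild-type (WT) and 3 IP3K-A knockout (KO) pools of mice was hybridized to GeneChip Mouse Gene 2.0 ST arrays. All mice were males of C57BL/6N background aged 10 to 15 weeks, and the WT were littermates of the KO. The KO targets Itpka, the gene of IP3K-A, and the labels name no drug or behavioral treatment before dissection. Each array held a pool of mice. The methods name 3 litters as their source, and leave unclear how many mice a pool held and whether it mixed litters. The p-values measure the spread between these pools. Values are log2 intensities normalized by the authors, a scale on which 1 unit is a doubling. They can be compared between pools for 1 gene, but not between genes. Precision is limited by having 3 arrays per genotype, and the smallest two-sided p that exact permutation of 3 against 3 allows is 0.1, which is also what Chrm3, Chrm4 and Ache gave.

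In the KO pools, Chrm3 was read higher than in every WT pool, while Chrm4 and Ache were read lower than in every WT pool. The differences were small, between 1.12-fold and 1.14-fold, and none of the 9 genes passed when p-values were adjusted across the whole table (limma with Benjamini-Hochberg adjustment at 0.05, lowest adjusted p = 0.73). Of all genes, 0.00902% passed that test. None of the 9 passed the looser thresholds of the methods (1.2-fold with p below 0.1, unadjusted), which 3.01% of all genes passed. Groups did not overlap in 3 of the 9 genes, 1 higher and 2 lower in KO, against 13.7% of all genes (7.54% higher and 6.16% lower). The same 3 genes had an unadjusted limma p under 0.05, against 6.52% of all genes (3.16% higher and 3.36% lower). That call was not stable: with 1 of the 6 pools left out it held in 3 of 6 fits for Chrm3, in 2 of 6 for Chrm4 and in 2 of 6 for Ache, each with fewer pools to test. Of the 9 genes, 3 had a positive and 6 a negative log2 fold change, with a median of −0.04, and the median of all genes was −0.00024.

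**Figure D1:**
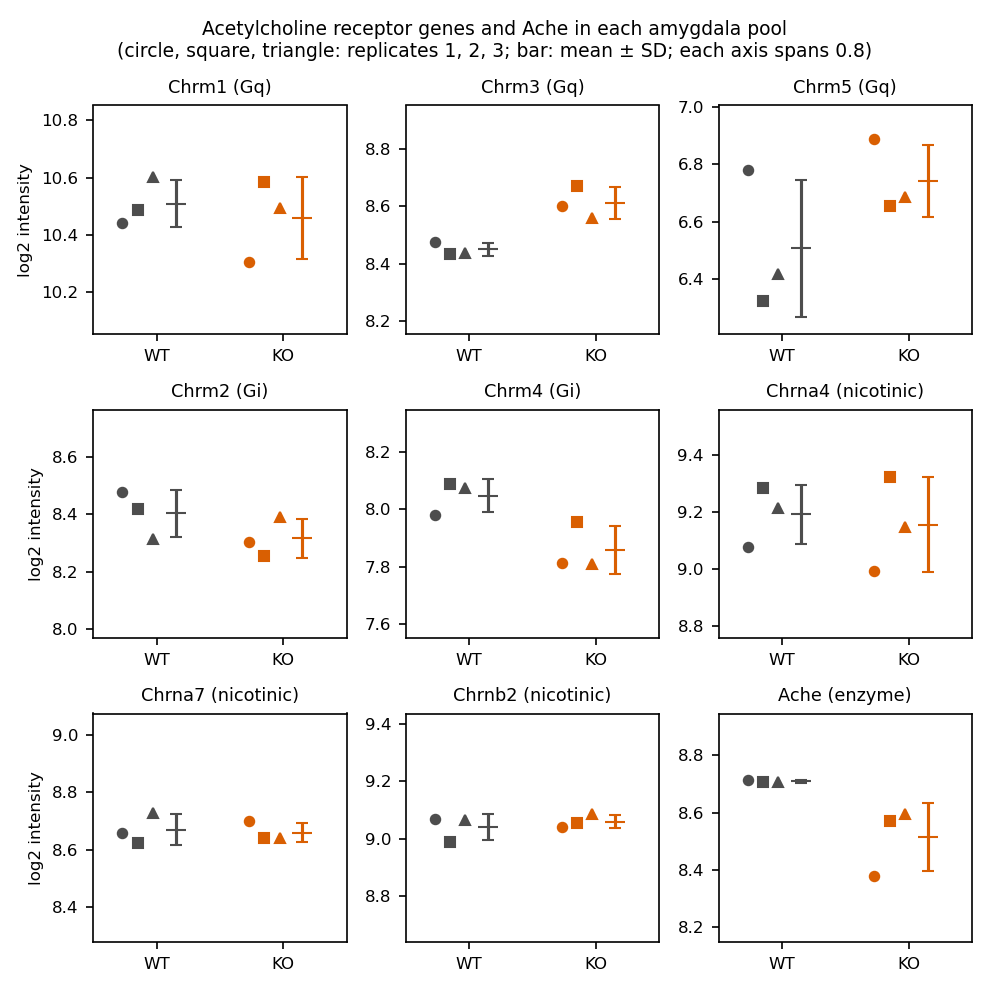
Log2 intensity of the 9 genes (y axis, each panel spanning 0.8 log2 units) in the 3 WT and 3 KO pools (x axis), 1 point per pool with the mean ± SD beside it. Chrm3 sits higher in all 3 KO pools, Chrm4 and Ache lower in all 3, and the other 6 genes overlap between genotypes.

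Itpka itself had log2 intensities of 8.85, 8.90 and 8.96 in WT 1 to 3 and 6.76, 6.95 and 6.96 in KO 1 to 3, so the arrays matched their genotype labels (log2 fold change −2.02, adjusted p = 2.6e-04 from limma). Markers of amygdala neurons were read for 12 genes, some shared with cortex, so they do not by themselves establish the tissue label. These included Slc17a7, the vesicular glutamate transporter of cortical and basolateral principal neurons (11.36 to 11.68 in the 6 pools), and Gad2, an enzyme of GABA synthesis (10.26 to 10.52). Of the 12, 6 were higher and 6 lower in KO, and 0 had an unadjusted limma p under 0.05. As a rough guide to the background of the arrays, 95% of 1108 olfactory receptor probe sets, whose genes are mostly silent in brain, had a mean below 6.33, and 99% below 7.16. Of the 9 genes, only Chrm5 had a mean below the latter value. Among the amygdala neuron markers, Crh read 6.03 to 6.25 in the 6 pools, below the former value. Pnoc averaged 6.97 in WT and 6.98 in KO, below the latter.

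Among the Gq-coupled receptors, Chrm3 encodes M3, the form best known from smooth muscle and glands that is also found in forebrain neurons. Its log2 intensity was 8.48 in WT 1, 8.44 in WT 2 and 8.44 in WT 3, and it was 8.60 in KO 1, 8.67 in KO 2 and 8.56 in KO 3. All KO pools were above all WT pools, with a gap of 0.085 between the nearest of them. WT averaged 8.45 ± 0.02 and KO 8.61 ± 0.06 (SD, n = 3 pools each). The difference was 0.16 on the log2 scale (SE 0.06, 95% interval 0.02 to 0.30, adjusted p = 0.73 from limma), or 1.12-fold. The upper end of the interval is 1.23-fold. In such bulk tissue, a change in the number of cells that carry a transcript and a change in its amount per cell cannot be told apart.

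Chrm5, the gene of M5, a receptor of midbrain dopamine neurons that is scarce elsewhere in the brain, was read at 6.78, 6.32 and 6.42 in WT 1 to 3. In KO 1 to 3 it was read at 6.89, 6.66 and 6.69. The KO pools were higher than WT 2 and WT 3, but WT 1 lay above KO 2 and KO 3, so the groups overlapped. The log2 fold change was 0.24 (SE 0.13, 95% interval −0.06 to 0.53, adjusted p = 0.74 from limma), the largest in size of the 9 and the least precise. It was 0.37 without WT 1, which put it past the thresholds of the methods, and 0.14 without WT 2. Its readings, 6.32 to 6.89, were as dim as those of the brighter olfactory receptor probe sets and cannot be told apart from background.

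Chrm1, the gene of M1, the main Gq-coupled muscarinic receptor of forebrain principal neurons, showed no separation. The WT pools read 10.44, 10.49 and 10.60 and the KO pools 10.30, 10.58 and 10.49. KO 1 was the lowest of the 6 and the other pools were mixed. The log2 fold change was −0.05 (SE 0.09, 95% interval −0.25 to 0.16, adjusted p = 0.92 from limma), and without KO 1 it turned to 0.03. The dimmer Chrm1 probe set gave −0.03, with all its readings between 6.65 and 6.91. The interval on the brighter one leaves room for a level from 1.19-fold lower to 1.11-fold higher in KO.

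Of the Gi-coupled receptors, Chrm4 encodes M4, which is abundant in striatal projection neurons and also serves as an autoreceptor of cholinergic neurons. Its log2 intensity was 7.98, 8.09 and 8.07 in WT 1 to 3 and 7.81, 7.96 and 7.81 in KO 1 to 3. All KO pools were below all WT pools, but KO 2 lay only 0.026 below WT 1. WT averaged 8.05 ± 0.06 and KO 7.86 ± 0.08 (SD, n = 3 pools each). The log2 fold change was −0.19 (SE 0.07, 95% interval −0.35 to −0.03, adjusted p = 0.73 from limma), or 1.14-fold lower.

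Chrm2 encodes M2, the receptor that slows the heart and that in brain sits largely on cholinergic and GABAergic terminals. It was read at 8.48, 8.42 and 8.32 in WT 1 to 3 and at 8.30, 8.25 and 8.39 in KO 1 to 3. The KO pools tended to the lower side, but KO 3 was above WT 3. The log2 fold change was −0.09 (SE 0.07, 95% interval −0.25 to 0.08, adjusted p = 0.82 from limma). A further probe set that the annotation pairs with Chrm2 and another gene was not used.

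Of the Gq-coupled genes Chrm3 and Chrm5 had positive log2 fold changes and Chrm1 a negative one, while both Gi-coupled genes had negative ones. To set the classes side by side, each gene was centered on its WT mean, and the mean of Chrm2 and Chrm4 was subtracted from the mean of Chrm1, Chrm3 and Chrm5 in each pool. The Gq mean was 0.11, 0.15 and 0.09 above its WT mean in KO 1 to 3, while the WT pools were at 0.08, −0.07 and −0.0028. The Gi mean was 0.17, 0.12 and 0.13 below its WT mean in the KO pools and between −0.03 and 0.03 in the WT pools. The difference of Gq and Gi was 0.28, 0.27 and 0.22 in KO 1 to 3 and 0.07, −0.10 and 0.03 in WT 1 to 3, so all KO pools were above all WT pools. Its KO mean was 0.25 ± 0.03 (SD, n = 3) and its WT SD was 0.09. The Gq side of this leans on Chrm5, whose signal is at background. Without Chrm5, an alternative chosen after seeing the data, the Gq mean was −0.03, 0.15 and 0.05 in KO 1 to 3 and −0.02, −0.02 and 0.04 in WT 1 to 3, so the groups overlapped. The difference of Gq and Gi was then 0.14, 0.27 and 0.17 in KO 1 to 3 and −0.03, −0.05 and 0.07 in WT 1 to 3, with a KO mean of 0.19 ± 0.07 (SD, n = 3) and no overlap. Chrm3 and Chrm4, whose pools did not overlap singly, enter this difference, so it is no separate result about the classes. No p is given, since the genes were chosen with results of these arrays known.

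**Figure D2:**
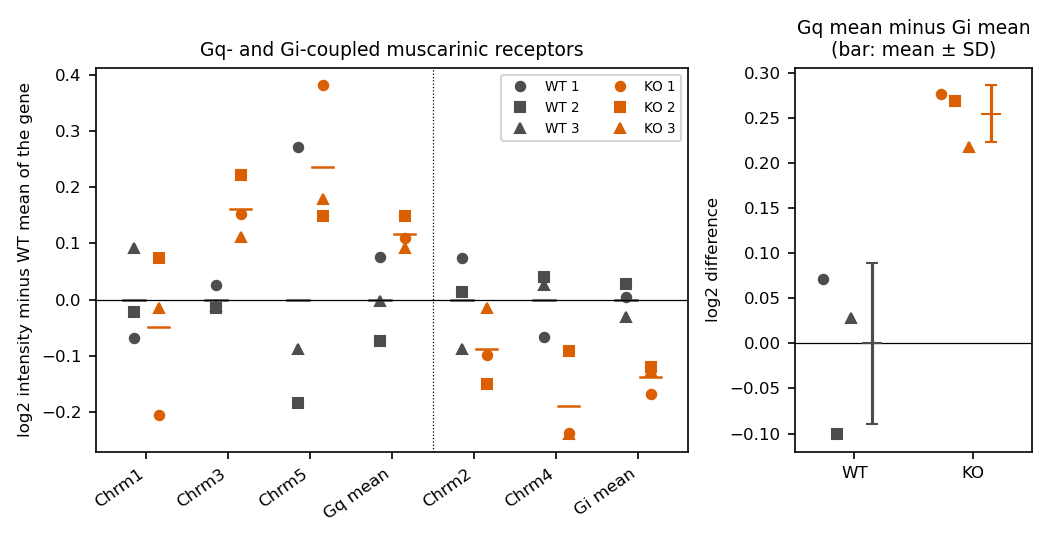
Left, log2 intensity of each muscarinic receptor gene minus its WT mean, with the Gq and Gi means (x axis), 1 point per pool and a line at the group mean. Right, the Gq mean minus the Gi mean in each pool with the mean ± SD, which runs from 0.22 to 0.28 in KO and from −0.10 to 0.07 in WT.

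The nicotinic subunit genes gave values close to each other in the 2 genotypes. Chrna4 and Chrnb2 encode the subunits of the high-affinity nicotinic receptor of the brain, and Chrna7 forms a calcium-permeable channel of its own. Chrnb2 read 9.07, 8.99 and 9.06 in WT 1 to 3 and 9.04, 9.05 and 9.08 in KO 1 to 3, and of the KO pools only KO 3 lay outside the range of WT, just above it. Its log2 fold change was 0.02 (SE 0.06, 95% interval −0.11 to 0.15, adjusted p = 0.95 from limma).

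Chrna7 read 8.66, 8.62 and 8.73 in WT 1 to 3 and 8.70, 8.64 and 8.64 in KO 1 to 3, all KO pools within the range of WT. Its log2 fold change was −0.0098 (SE 0.06, adjusted p = 0.98 from limma), and the 95% interval from −0.15 to 0.13 leaves room for a level up to 1.11-fold lower or 1.09-fold higher. Chrna4 varied more, with 9.08, 9.28 and 9.21 in WT 1 to 3 and 8.99, 9.32 and 9.15 in KO 1 to 3. KO 1 and WT 1 were its lowest pools and KO 2 its highest. The log2 fold change was −0.04 (SE 0.10, 95% interval −0.27 to 0.19, adjusted p = 0.95 from limma). Its sign turned without KO 1 or WT 2, as that of Chrnb2 did without WT 2 and that of Chrna7 did without WT 3, KO 2 or KO 3, so no direction can be read from the subunits.

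Ache was read at 8.71 in each of the WT pools and at 8.38 in KO 1, 8.57 in KO 2 and 8.60 in KO 3. All KO pools were below all WT pools, by at least 0.11. WT averaged 8.71 ± 0.0049 and KO 8.51 ± 0.12 (SD, n = 3 pools each), so the spread of KO was far larger than that of WT. The log2 fold change was −0.19 (SE 0.07, 95% interval −0.36 to −0.02, adjusted p = 0.74 from limma), or 1.14-fold lower, and −0.13 without KO 1.

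**Figure D3:**
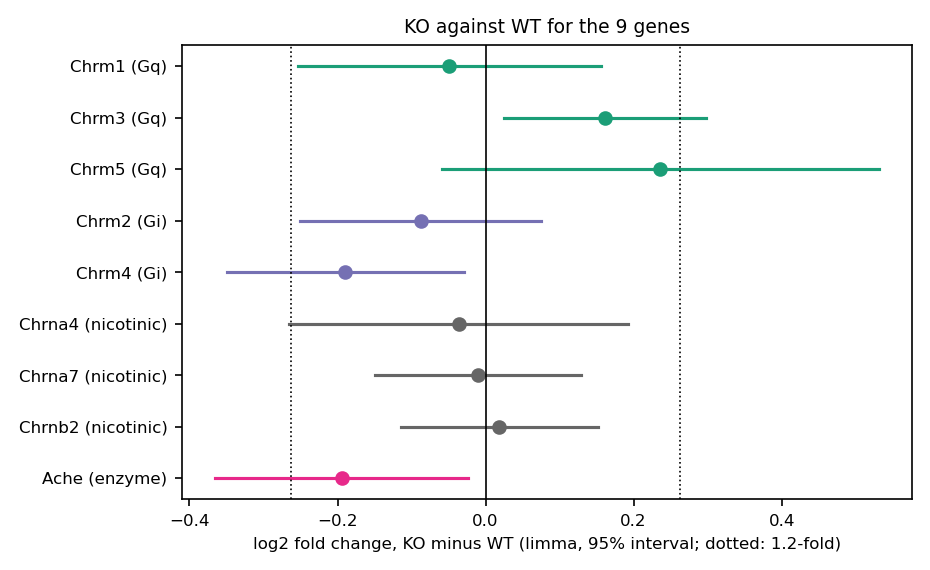
Log2 fold change of KO against WT (x axis) with its 95% interval from limma for the 9 genes (y axis), grouped by role, and dotted lines at 1.2-fold in each direction. The intervals of Chrm3, Chrm4 and Ache leave out 0 before adjustment for the number of genes tested, and the point estimates of all 9 genes lie within the dotted lines.

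The start-site regions of the 3 genes whose pools did not overlap are shown, so that the members that were higher and lower in KO can be set side by side. Each run is the RefSeq window from 250 bases before to 50 after the start on GRCm38.p6, read 5′ to 3′ on the strand of the gene. Capitals mark the GC box GGGCGG or the E-box CACGTG on either strand.
Chrm3, chr13:10360754-10361053, minus strand: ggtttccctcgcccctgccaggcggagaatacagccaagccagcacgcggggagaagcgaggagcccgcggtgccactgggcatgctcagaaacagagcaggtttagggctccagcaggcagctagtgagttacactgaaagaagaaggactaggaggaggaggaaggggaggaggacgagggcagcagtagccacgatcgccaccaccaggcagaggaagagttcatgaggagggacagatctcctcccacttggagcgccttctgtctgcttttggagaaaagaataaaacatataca
Chrm4, chr2:91921939-91922238, plus strand: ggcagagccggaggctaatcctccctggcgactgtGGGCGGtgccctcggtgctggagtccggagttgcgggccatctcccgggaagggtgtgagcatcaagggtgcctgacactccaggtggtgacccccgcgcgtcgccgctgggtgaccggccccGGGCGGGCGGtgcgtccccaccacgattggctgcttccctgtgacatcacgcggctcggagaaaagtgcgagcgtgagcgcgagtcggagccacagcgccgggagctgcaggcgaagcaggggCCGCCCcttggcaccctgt
Ache, chr5:137288004-137288303, plus strand: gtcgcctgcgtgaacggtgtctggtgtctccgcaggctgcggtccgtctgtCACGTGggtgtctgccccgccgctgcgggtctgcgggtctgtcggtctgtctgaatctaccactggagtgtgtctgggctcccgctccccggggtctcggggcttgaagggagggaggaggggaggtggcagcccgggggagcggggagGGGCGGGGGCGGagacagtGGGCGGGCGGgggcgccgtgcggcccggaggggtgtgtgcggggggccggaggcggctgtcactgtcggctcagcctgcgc

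The window of Chrm4 holds 4 GC boxes, 2 of which overlap, and that of Ache holds 4, of which 1 pair overlaps and the other pair adjoins, as well as 1 E-box. The window of Chrm3 has none of these letters. Of all 32851 RefSeq windows of this length, 35.7% hold a GC box and 7.15% an E-box. GC content was 57.3% for Chrm3, 70.7% for Chrm4 and 74.0% for Ache, against a median of 52.7%. GC boxes were not particular to the lower genes, since the window of Chrna4, which did not separate the genotypes, holds 3 at a GC content of 74.3%. Neither the cyclic AMP response element TGACGTCA (1.79% of windows) nor TATAAA (13.6%) is in the windows of the 8 genes with an entry, which leave out Chrm1. A match is a run of letters and not a shown site of binding.

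Markers of other cells moved in some of the same pools. The list of cholinergic neuron markers, which make acetylcholine, was read lower in KO for 8 of 8 measured genes, with 1 at an unadjusted limma p under 0.05 (3.36% of all genes in that direction) and 3 without overlap (6.16%). Its mean level was 6.31, 6.36 and 6.19 in WT 1 to 3 and 6.08, 6.02 and 6.23 in KO 1 to 3, so KO 3 lay above WT 3. For Lhx8, a transcription factor of forebrain cholinergic neurons, the difference was −0.36 (log2, SE 0.11, adjusted p = 0.73 from limma), at 6.29, 6.06 and 5.84 in WT 1 to 3 and 5.70, 5.72 and 5.70 in KO 1 to 3. The list mean lay below 6.33, the value under which 95% of the olfactory receptor probe sets fell, in 5 of the 6 pools. Oligodendrocyte markers were lower in KO for 7 of 7 genes, 1 at an unadjusted limma p under 0.05 and 1 without overlap. Their pool means were 9.56 to 9.65 in WT and 9.17 to 9.62 in KO, where KO 2 was the lowest. Choroid plexus markers were higher for 6 of 6, where 11061 of all genes were higher, with 1 without overlap (7.54%). Their means were 8.63 in KO 1, 7.42 in KO 2 and 7.13 in KO 3 against 7.03 to 7.21 in WT. The thresholds of the methods were passed by 1 of the 8 cholinergic, 3 of the 7 oligodendrocyte and 3 of the 6 choroid plexus genes, against 3.01% of all genes. The part of these cells in the values of Ache, Chrm4 and Chrm5 was not tested.

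Striatal projection neuron markers were lower in KO for 15 of 16 measured genes, where 11119 of all 22180 genes were lower. Of the 15, 2 (Gng7 and Gpr6) had an unadjusted limma p under 0.05, against 3.36% of all genes. Both also passed the thresholds of the methods (3.01%), and Gng7 alone had no overlap (6.16%). The striatal means were 9.80, 9.87 and 9.50 in WT 1 to 3 and 9.39, 9.44 and 9.76 in KO 1 to 3. For Chrm4, KO 3 (7.809) and KO 1 (7.812) were nearly level as the lowest pools. WT 3, at 8.07, was close to its highest, WT 2, at 8.09. With the striatal mean as a covariate, the log2 fold change was −0.21 for Chrm4, 0.15 for Chrm3, −0.15 for Ache, 0.22 for Chrm5 and −0.03 for Chrm2, which had been −0.09. With the covariate the unadjusted limma p stayed under 0.05 for Chrm4 but not for Chrm3 and Ache. The adjusted p from limma was then 0.9998 for each of them. What striatal tissue contributed to these values was not tested. Astrocyte markers had pool means of 9.63 to 9.72 in WT and 9.68 to 9.76 in KO, and microglial markers of 7.96 to 8.09 and 8.03 to 8.04. Markers of thalamus had 7.76 to 7.83 in WT and 7.79 to 7.83 in KO, and those of endothelial and mural cells 8.03 to 8.09 and 8.04 to 8.12. The pool means of these 4 lists overlapped between the genotypes, as did those of the cholinergic, oligodendrocyte, choroid plexus and striatal lists. Of the 7 endothelial and mural genes, 5 were lower in KO. The other 2 were higher, with an unadjusted limma p under 0.05 and no overlap, against 3.16% and 7.54% of all genes.

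**Figure D4:**
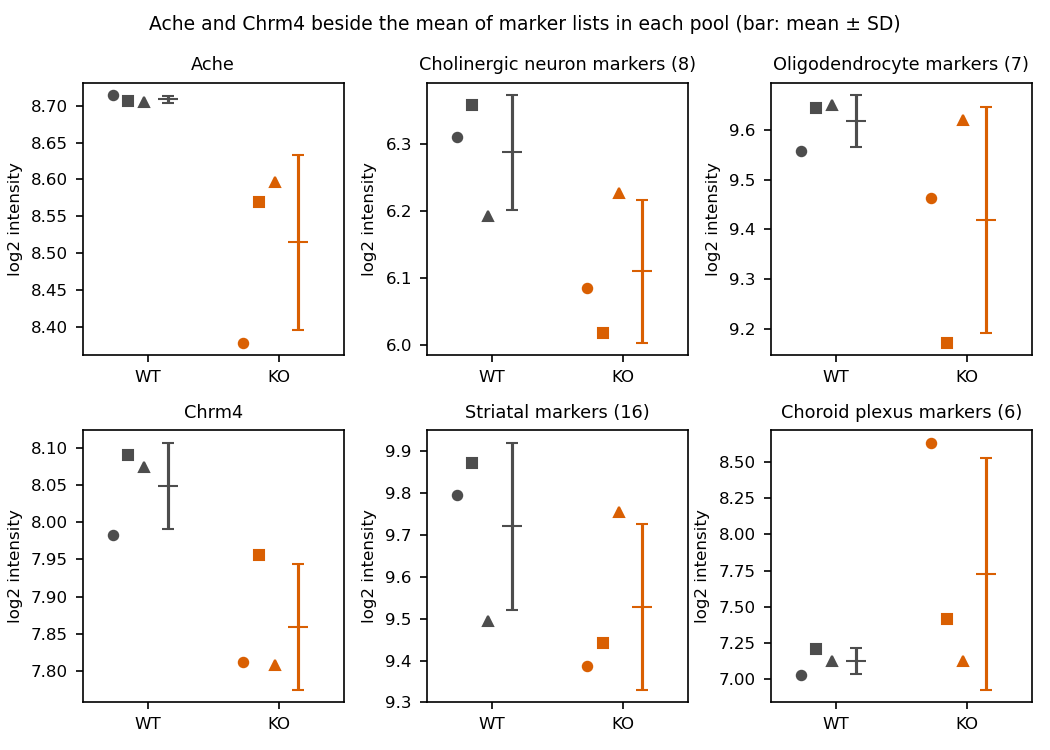
Log2 intensity of Ache and Chrm4, and the mean log2 intensity of 4 marker lists (y axes, own range per panel, number of genes in brackets), in the WT and KO pools (x axis; circle, square and triangle for replicates 1, 2 and 3), with mean ± SD. Ache was lowest in KO 1, where the choroid plexus mean was 8.63, and the striatal mean of KO 3, 9.76, lay above that of WT 3, 9.50.

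The genes that make and carry acetylcholine had negative log2 fold changes, and none passed the adjusted test. They are also in the cholinergic marker list above, so this is not a separate result. Chat, which makes acetylcholine, was 6.17, 6.36 and 6.00 in WT 1 to 3 and 5.98, 5.97 and 6.00 in KO 1 to 3, with WT 3 barely above KO 3 (log2 fold change −0.20, SE 0.09, adjusted p = 0.74 from limma). Slc18a3, the vesicular transporter, had −0.20 (SE 0.13) and Slc5a7, the choline transporter that feeds the synthesis, −0.14 (SE 0.14), both with overlapping groups. All readings of Slc18a3, and all of Chat but WT 2, lay below 6.33, so these differences are between dim signals. The cell bodies that make most amygdala acetylcholine lie outside the amygdala.

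Of the other genes of acetylcholine breakdown, Prima1, which anchors acetylcholinesterase in neuronal membranes, was 6.95, 6.72 and 6.87 in WT 1 to 3 and 6.61, 6.73 and 6.65 in KO 1 to 3. It ran in the direction of Ache, but KO 2 was just above WT 2 (log2 fold change −0.18, SE 0.08, adjusted p = 0.74 from limma). The groups also overlapped for Bche, the related butyrylcholinesterase, at 0.12 (SE 0.12). All readings of Prima1 and Bche lay below 7.16, the value under which 99% of the olfactory receptor probe sets fell. These differences are thus between dim signals.

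Of the 13 other nicotinic subunit genes, 7 had positive and 6 negative log2 fold changes, from −0.19 for Chrne, a subunit of muscle, to 0.13. The smallest p in the positive direction was that of Chrnb4 (log2 fold change 0.10, SE 0.08). In all 13 the groups overlapped, none had an unadjusted limma p under 0.05, and the median was 0.03. Their mean level was 6.09 in WT and 6.09 in KO, below 6.33, under which 95% of the olfactory receptor probe sets fell. Overlap at such dim signals does not show that these genes were unchanged. Among 6 genes of nicotinic receptor assembly and modulation, 3 were positive and 3 negative. Lypd6, a membrane-anchored modulator, had 0.16 (SE 0.08) and Ly6h, which holds back Chrna7 receptors, −0.16 (SE 0.08), both with overlapping groups and adjusted p = 0.74 from limma.

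Of 8 genes on the Gq side of muscarinic signaling, 7 had positive log2 fold changes, where 11061 of all 22180 genes did. Groups did not overlap for 3 of the 8, all higher in KO, against 7.54% of all genes. Plcb4, a phospholipase C that makes IP3, was 8.40, 8.34 and 8.38 in WT 1 to 3 and 8.48, 8.51 and 8.49 in KO 1 to 3. Its log2 fold change was 0.12 (SE 0.05, adjusted p = 0.74 from limma), and Plcb3 was the gene with a negative value, −0.08 (SE 0.08). The other genes without overlap were Plcb1, at 0.06 (SE 0.05), and Kcnq3, a subunit of the potassium current that muscarinic receptors close, at 0.06 (SE 0.06), both named after their values were seen. The median was 0.06 and none had an unadjusted limma p under 0.05. Of 7 genes on the Gi side, 4 were positive and 3 negative, with a median of 0.04. Gnai1, an alpha subunit of Gi, had 0.11 (SE 0.06), with all KO pools above all WT pools, and Gnai2 had −0.04 (SE 0.06).

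**Figure D5:**
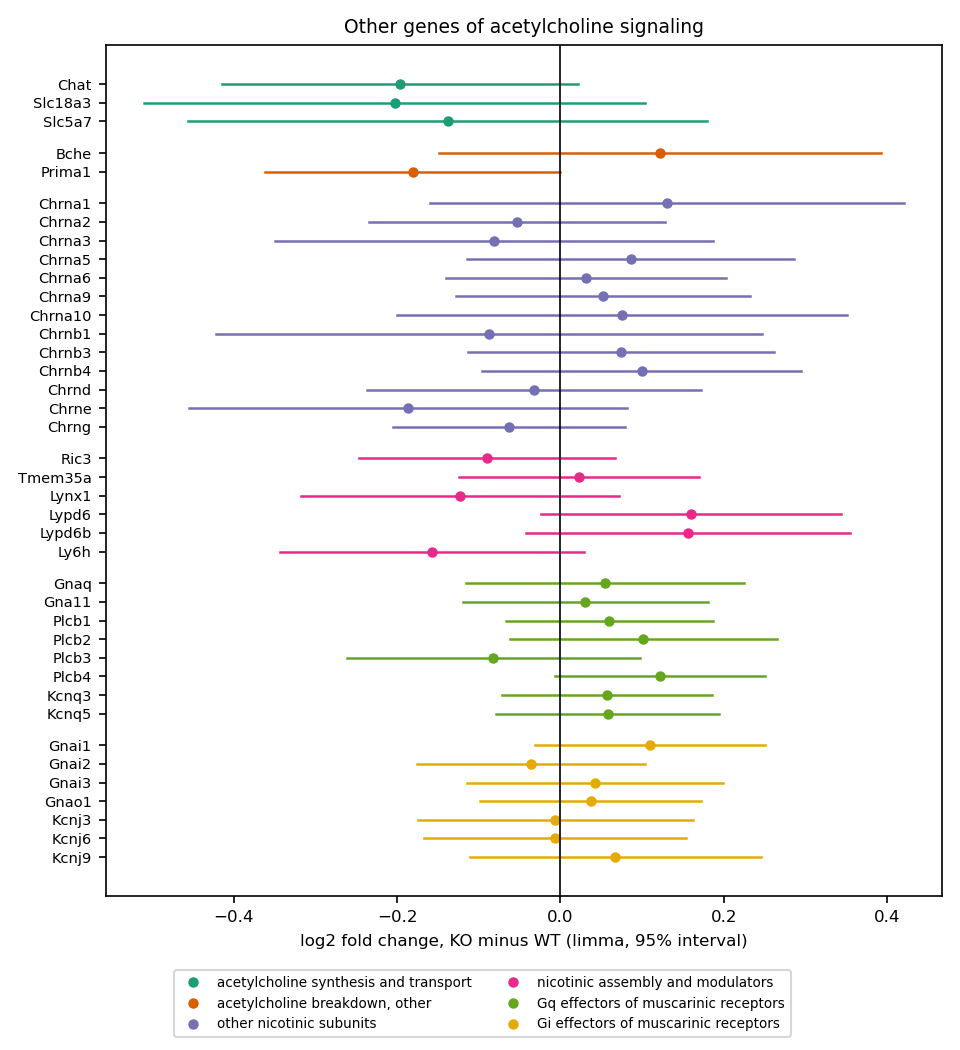
Log2 fold change of KO against WT (x axis) with its 95% interval from limma for the other measured genes of acetylcholine signaling (y axis), colored by list. The 3 genes of synthesis and transport lie between −0.20 and −0.14, and 7 of 8 Gq-side genes lie above 0. Of all genes drawn the interval leaves out 0 only for Prima1, before adjustment and at a dim signal.

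Of the 9 genes, 3 lie on chromosome 2, as Itpka does. In the order of the 1864 measured genes of that chromosome, Chrm5 lies 70 genes and Chrm4 214 genes proximal to Itpka, and Chrna4 lies 692 genes distal to it. Chrm3 and Ache, whose pools did not overlap, lie on chromosomes 13 and 5.

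Chrm5 and Ache varied most over the 6 pools, with an SD of 0.21 and 0.13. The genes whose centered values were nearest to those of Chrm5, by root mean square difference over the 6 pools, were Uprt (0.039), Map3k19 (0.051) and Defb33 (0.051), among 10373 genes with at least 0.5 times its SD. Nearest to Ache were Tspan10 (0.018), Gipc3 (0.019) and Reep5 (0.022), among 17571. Reep5, a gene of the tubular endoplasmic reticulum, was 10.39, 10.37 and 10.33 in WT 1 to 3 and 10.07, 10.25 and 10.26 in KO 1 to 3. Since Reep5 was picked by its likeness to Ache over these pools, its lowest value in KO 1 is part of that choice.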

How the data were processed

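Deposited were log2 intensities of 41345 probe sets on 6 arrays. GCOS and RMA are the tools listed in the processing notes of the submitters. RMA subtracts background, equalizes the distributions of the arrays and summarizes the probes of a set. Versions are not given in the sources used here. Values ran from 1.57 to 13.78, with array medians from 6.49 to 6.52. Correlations between arrays were 0.988 to 0.993. The 23521 probe sets that the platform annotation pairs with 1 symbol were tested, and 1820 with several symbols and 16004 that are not listed were left out.

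The genotypes were compared per probe set with limma (version 3.58.1, R 4.3.3), using no covariate, and p-values were adjusted over all probe sets tested (Benjamini-Hochberg, calls under 0.05). The brightest probe set stood for a gene. The methods name a Student test, used as an alternative. Since RMA puts all arrays on the same distribution, a shift shared by most genes would not be seen. Members and gene lists were chosen with earlier results of these data known. Named are the 9 genes, the synthesis genes, the gene with the smallest p in each direction of the other lists of the acetylcholine pathway, and the 3 genes nearest to the 2 most variable members. Slc17a7, Gad2, Crh and Pnoc, as tissue markers, and Lhx8, Gng7, Gpr6, Plcb1 and Kcnq3 fall outside this rule and were named after their values were seen. Of 22180 genes, 21994 matched the gene table of GRCm38.p6, used for gene order. Figures were drawn with matplotlib 3.10.9. Alternatives were other tests, scalings, filters, array weights, a replicate block, a striatal covariate and leaving out each pool.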

Additional observations from a re-analysis of the deposited data

How the results depend on the processing

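None of the 9 genes passed an adjusted p under 0.05 under any of 135 alternative fits of a member. Chrm2, Chrm3, Chrm4, Chrm5 and Ache kept their direction in all of theirs; without 1 pool at a time, Chrm3 ran from 0.13 to 0.19, Chrm4 from −0.24 to −0.16, Ache from −0.24 to −0.13 and Chrm5 from 0.14 to 0.37. The sign turned in 8 fits. Without 1 pool at a time Chrm1 ran from −0.11 to 0.030 (without KO 1), Chrna4 from −0.12 to 0.045 (without KO 1, and 0.0092 without WT 2), Chrna7 from −0.033 to 0.020 (without WT 3, with 0.00017 without KO 2 and 0.00042 without KO 3) and Chrnb2 from −0.0071 (without WT 2) to 0.032. With array weights Chrna4 was 1.7e-05. An unadjusted p under 0.05 held in 10 of 15 alternatives for Chrm3, 11 of 15 for Chrm4 and 10 of 15 for Ache. Besides fits without 1 pool, it was lost with the striatal covariate (Chrm3 and Ache) and with the replicate block (Chrm3), and Chrm5 reached it with the block and without WT 1. The difference of Gq and Gi ran from 0.20 to 0.29 without 1 pool at a time and was 0.19 without Chrm5, chosen after seeing the data. Members past the thresholds of the methods numbered 0 or, without WT 1, 1 (Chrm5). Members without overlap numbered 3, or 4 without WT 1, WT 3 or KO 3, where fewer pools have to be separated.

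Probe sets at an adjusted p under 0.05 numbered 2. They were 0 with the methods' test, where Itpka had an adjusted p of 0.24 and 452 probe sets passed the thresholds of the methods, against 738 with limma. They were 10 with an intensity trend and robust estimation, 7 with arrays centered on their medians, 7 with array weights, 1 with the striatal covariate and 1 to 6 without 1 pool at a time, most without WT 1. Above the median level there was 1, with 140 past the thresholds of the methods, and Chrm5 has no value there. Over all probe sets of the table there were 50, with 2439 past the thresholds. Without 1 pool at a time, 787 to 1124 passed the thresholds, most without WT 3.

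The labels do not say whether same-numbered pools belong together. Deviations of same-numbered pools correlated at −0.03, 0.09 and −0.0097, and 2 of 6 pools correlated best with their own number. Weak correlations like these show no pairing but cannot exclude one. With the replicate block 1 probe set passed an adjusted p under 0.05, and none of the 9 genes did. Background on these arrays limits Chrm5, Chat, Slc18a3, Slc5a7, Lhx8, Prima1, Bche and the dimmer Chrm1 probe set, whose signals are near those of silent genes. The same holds for Defb33, Tspan10 and Gipc3, and for most of the other nicotinic subunit genes.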
